A study of Mus musculus with 8 samples.

Results

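Ube2t and 8 Fanconi anemia genes (Fancd2, Fanci, Fanca, Fancb, Fancc, Fancg, Fancl and Fancm) were examined in mRNA of the embryonic mouse cortex. They are 9 of the 23284 gene symbols in the count files and were found by symbol. The set was selected on measured values, because Ube2t read lower in the ErbB4 -/- libraries, so the levels and fold change of Ube2t are given as a description with no test. The other 8 members were taken as its pathway partners and were read from the fit over all genes.

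The series compared RNA-seq profiles of WT and ErbB4 -/- cortex to find genes whose expression changes when the receptor tyrosine kinase ErbB4 is lost. There were 4 libraries of each genotype, all from C57BL/6 embryos at E15.5, a stage of cortical neurogenesis. Because embryos with no ErbB4 at all die of heart defects, the ErbB4 -/- line carries a transgene that restores the receptor in heart muscle through the alpha-MHC promoter. WT and ErbB4 -/- animals were kept as separate homozygous colonies, so a difference between the colonies and an effect of the genotype cannot be told apart. The tissue was dorsal cortex from which the meninges and ganglionic eminences had been dissected away. Nothing in the sources used here says which embryos shared a litter, and the p-values measure only the spread between these libraries. In bulk tissue, fewer cells of a type and less RNA per cell cannot be told apart.

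The Fanconi anemia pathway repairs DNA interstrand crosslinks, lesions that join both strands and stop a replication fork. Fancm docks the core complex on DNA, and in that complex the ubiquitin ligase Fancl works with the ubiquitin-conjugating enzyme Ube2t (an E2) to attach a single ubiquitin to Fancd2 and Fanci, which then clamp onto the DNA and recruit nucleases and recombination proteins. Usp1 with its partner Wdr48 removes the ubiquitin again. The pathway is active mainly in S phase and matters most in dividing cells, which in the embryonic cortex are the progenitors of the ventricular and subventricular zones.

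Depth was 28205703 to 38346416 counts in the WT libraries and 31574536 to 48871480 in the libraries labelled ErbB4 -/-. Erbb4 itself was at 8.99, 19.9, 25.3 and 19.2 CPM (counts scaled to a common library size) in WT replicates 1 to 4 and at 20.9, 24.6, 20.7 and 23.5 CPM in the libraries labelled ErbB4 -/-. Going by the labels, Erbb4 RNA was thus not below WT in the knockout libraries. Counts cover the whole gene and the disrupted part was not analysed here, so this level does not check the genotype, and every direction given for the libraries labelled ErbB4 -/- rests on the labels. Xist, the RNA of the inactive X chromosome, was at 983 to 1687 CPM in WT replicates 1 to 3 and at 2.70 to 3.82 CPM in the other 5 libraries. The Y-linked Ddx3y was at 76.4 to 80.9 CPM in those 5 libraries and at or below 0.495 CPM in WT replicates 1 to 3. WT replicate 4 was thus the only WT library whose Xist and Ddx3y levels matched those of the knockout, so the embryo's sex and the genotype were largely confounded, and beyond that library their effects cannot be told apart in any fold change given here. WT replicate 1 stood apart on the first principal component (-38.9, against -6.07 to 15.48 in the others), and the deviation of its genes followed exon length (Spearman rho = -0.52 across genes, against 0.03 to 0.20 in the others).

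Ube2t lies on chromosome 1 of NCBIM37 (mm9), from 136859142 to 136870739 on the plus strand. Its annotated coding transcript has 7 exons and 1116 nucleotides, of which 612 are coding. No other annotated gene overlaps it, and it lies 67.7 Mb from Erbb4 on the same chromosome. The sequence upstream of its start is shown because it carries a CCAAT box (CCAAT, the letters bound by the factor NF-Y) 3 times, at 124 to 120, 80 to 76 and 40 to 36 bases before the start. The upstream stretches of Fanca and Fancm are shown beside it as the other members with the box within 100 bases of the start. Fanca has the box 2 times, at 50 to 46 and 23 to 19 bases before the start, and Fancm has it 1 time, at 63 to 59. Each is the 250 bases before the RefSeq start (table of GRCm38.p6), placed by exact match on NCBIM37 and written 5′ to 3′ on the coding strand with CCAAT in capitals. Ube2t is at chr1:136858892-136859141 (plus strand), Fanca at chr8:125842477-125842726 (minus strand) and Fancm at chr12:66176340-66176589 (plus strand).
Ube2t: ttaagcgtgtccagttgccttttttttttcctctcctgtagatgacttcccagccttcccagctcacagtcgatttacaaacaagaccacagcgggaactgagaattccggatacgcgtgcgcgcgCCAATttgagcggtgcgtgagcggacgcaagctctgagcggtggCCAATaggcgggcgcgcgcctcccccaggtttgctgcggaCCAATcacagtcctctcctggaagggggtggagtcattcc
Fanca: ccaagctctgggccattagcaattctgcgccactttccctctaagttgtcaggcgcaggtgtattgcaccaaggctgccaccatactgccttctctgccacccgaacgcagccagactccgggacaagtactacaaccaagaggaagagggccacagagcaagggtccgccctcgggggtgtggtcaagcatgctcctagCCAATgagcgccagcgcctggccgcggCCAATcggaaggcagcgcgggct
Fancm: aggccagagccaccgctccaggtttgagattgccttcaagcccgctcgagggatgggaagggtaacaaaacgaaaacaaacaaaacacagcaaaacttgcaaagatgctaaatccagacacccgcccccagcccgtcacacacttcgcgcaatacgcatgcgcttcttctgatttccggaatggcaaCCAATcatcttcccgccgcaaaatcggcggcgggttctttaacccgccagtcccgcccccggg

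An upstream sequence was matched for 8 of the 9 members, all except Fancd2. In the stretches of Fancb and Fancc the CCAAT box occurred 1 time each, at 201 to 197 and at 242 to 238 bases before the start, in Fancc as ATTGG on the coding strand. The stretches of Fancg, Fanci and Fancl held no CCAAT on either strand. Among all 32536 RefSeq upstream stretches of this length, 33.8% held CCAAT on either strand and 2.78% held it 3 or more times. The cell cycle motif named CHR (TTTGAA, either strand) was in none of the 8 stretches and in 15.8% of all. The motif of the E2F factors, searched as TTTCCCGC, TTTCGCGC, TTTGCCGC or TTTGGCGC on either strand, was in Fancg alone, at 52 to 45 bases before the start as TTTCCCGC, and in 1.87% of all. No stretch held matches to more than 1 of these motifs, so none overlapped. These matches describe the letters only.

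Ube2t was lower in the libraries labelled ErbB4 -/-. Its raw counts were 367, 248, 438 and 302 in WT replicates 1 to 4 and 267, 242, 275 and 154 in ErbB4 -/- replicates 1 to 4. Scaled to depth, the levels were 13.1, 7.96, 11.4 and 8.60 CPM in WT and 5.42, 6.95, 7.04 and 4.89 CPM in ErbB4 -/-. All 4 ErbB4 -/- libraries lay below all 4 WT libraries, with WT replicates 1 and 3 high, and the gap between the lowest WT library and the highest ErbB4 -/- library was narrow (7.96 against 7.04 CPM). The mean was 10.3 ± 2.41 CPM in WT and 6.08 ± 1.09 CPM in ErbB4 -/- (SD, n = 4 each). The fitted log2 fold change was -0.75 (SE 0.18), a ratio of 0.593. Of the 14696 genes tested, 51 (0.347%) had a lower log2 fold change. With WT replicate 4 as the lone WT library the log2 fold change was -0.50, and with Xist as a covariate it was -0.50 (SE 0.27). The covariate was a class, high in WT replicates 1 to 3 and low in all others. It thus leaves WT replicate 4 as the only WT library set against ErbB4 -/-, here and wherever it is used below. These values are therefore nearly the same comparison and not separate checks. The log2 fold change was -0.62 without WT replicate 1, the library that stood apart.

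**Figure D1:**
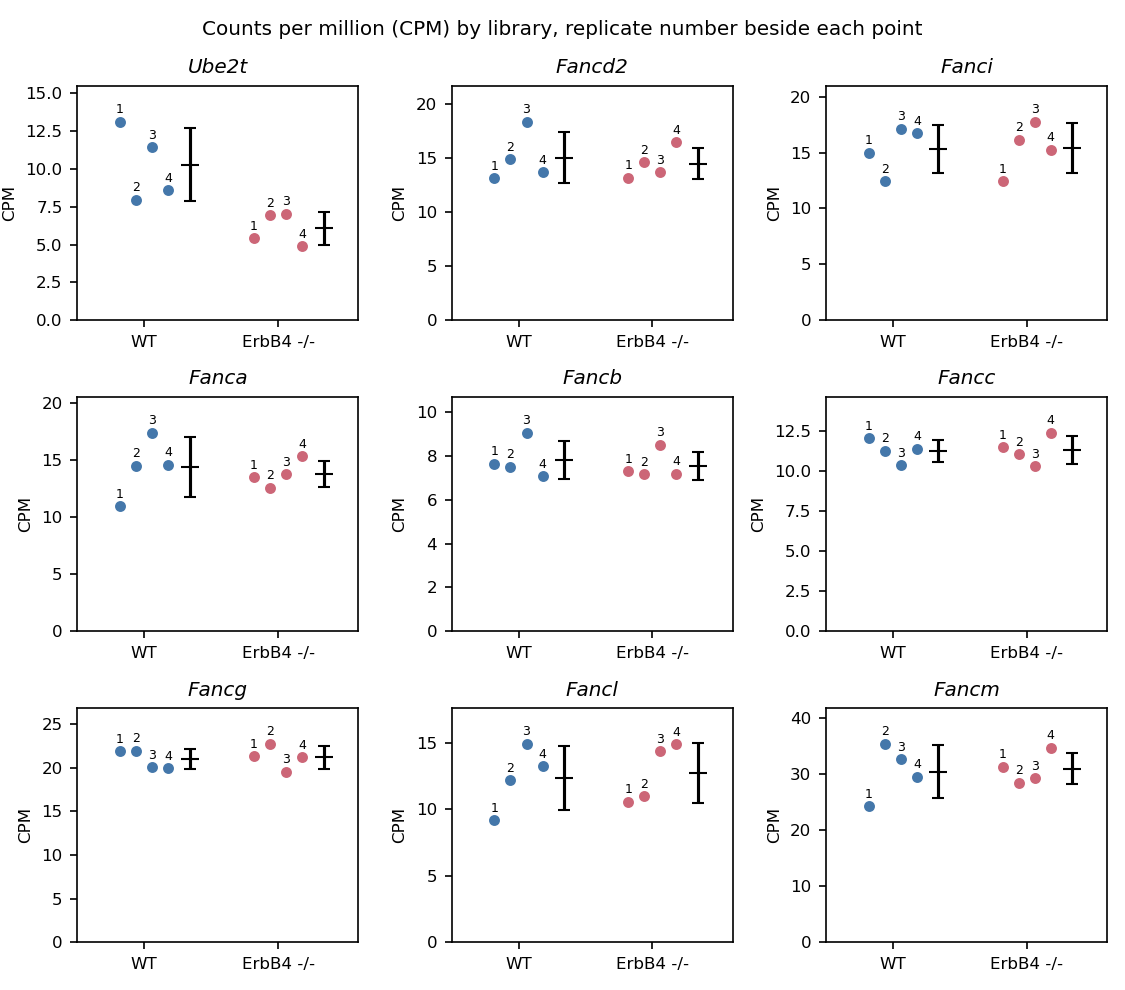
CPM of the 9 members on the y axis of each panel, by genotype on the x axis, with 1 point per library marked by its replicate number and the mean ± SD of the 4 libraries beside the points. Ube2t is at 7.96 to 13.1 CPM in WT and at 4.89 to 7.04 CPM in ErbB4 -/-, and in each of the other 8 panels the genotypes overlap.

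None of the other 8 members was called, and their genotypes overlapped in every case. All 9 members passed the filter on low counts, with 154 to 1541 counts per library. With edgeR's quasi-likelihood test and Benjamini-Hochberg adjustment over all 14696 genes, 0 of the 8 passed an adjusted p of 0.05, where 4 genes (0.0272% of those tested) did so in all, 1 higher and 3 lower. At an unadjusted p under 0.05 the count was 0 of 8, against 5.53% of all genes, and DESeq2 and limma-voom also called 0 of 8. The libraries of the 2 genotypes did not overlap in 0 of the 8, against 3.34% of all genes (1.48% counting only those lower in ErbB4 -/-). These shares are near the background, which for the adjusted call is itself close to 0. The log2 fold changes of the 8 ran from -0.06 to 0.03 with a median of 0.0043, 3 lower and 5 higher, where the median of all genes was -0.0022. Their adjusted p-values were 0.918 to 0.997. Over the 8 genes, the 95% intervals of the log2 fold change reached no lower than -0.34 and no higher than 0.37.

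Fancd2 and Fanci form the ID2 complex, the pair on which Ube2t acts. Fancd2 was at 13.1, 14.9, 18.4 and 13.7 CPM in WT replicates 1 to 4 and at 13.2, 14.6, 13.7 and 16.5 CPM in ErbB4 -/-. WT replicate 3 was the highest library, and the genotypes overlapped over most of their range. The log2 fold change was -0.06 (SE 0.12; 95% interval -0.31 to 0.20; edgeR adjusted p = 0.921). Fanci was at 14.98, 12.4, 17.1 and 16.8 CPM in WT and at 12.4, 16.1, 17.7 and 15.2 CPM in ErbB4 -/-. The lowest library of each genotype was at the same rounded level, and the highest was ErbB4 -/- replicate 3. The log2 fold change was 0.0033 (SE 0.13; 95% interval -0.28 to 0.28; edgeR adjusted p = 0.997).

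Fancl, the RING-type ligase that binds Ube2t, was not lower in ErbB4 -/- by the fitted value. Fancl was at 9.20, 12.2, 14.9 and 13.2 CPM in WT and at 10.6, 11.0, 14.4 and 14.9 CPM in ErbB4 -/-. WT replicate 1, the highest library for Ube2t, was the lowest for Fancl. Its log2 fold change was 0.03 with the widest error of the 8 (SE 0.16; 95% interval -0.31 to 0.37; edgeR adjusted p = 0.974). Fancb, an X-linked gene whose protein sits with Fancl and Faap100 in the catalytic module of the core complex, was at 7.63, 7.51, 9.04 and 7.07 CPM in WT and at 7.31, 7.15, 8.50 and 7.18 CPM in ErbB4 -/-. Replicate 3 was the highest library within both genotypes, and the 3 WT libraries with high Xist overlapped the 5 others. The log2 fold change of Fancb was -0.05 (SE 0.11; 95% interval -0.30 to 0.19; edgeR adjusted p = 0.921).

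Fanca and Fancg belong to a second module of the core complex, in which they bind each other. Fanca was at 11.0, 14.5, 17.4 and 14.6 CPM in WT and at 13.5, 12.6, 13.8 and 15.3 CPM in ErbB4 -/-. The ErbB4 -/- libraries all lay between WT replicate 1 and WT replicate 3, and the log2 fold change was -0.06 (SE 0.13; 95% interval -0.34 to 0.21; edgeR adjusted p = 0.918). Fancg was at 21.9, 21.9, 20.1 and 19.9 CPM in WT and at 21.3, 22.7, 19.5 and 21.2 CPM in ErbB4 -/-. It had the smallest relative spread of the members within WT (5.33% of the mean), and its log2 fold change of 0.02 had the smallest SE (0.076; 95% interval -0.15 to 0.18; edgeR adjusted p = 0.973).

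Fancc, which with Fance and Fancf connects the core complex to Fancd2, was at 12.1, 11.3, 10.4 and 11.4 CPM in WT and at 11.5, 11.1, 10.3 and 12.4 CPM in ErbB4 -/-. The genotypes covered nearly the same range, and the log2 fold change was 0.0054 (SE 0.09; 95% interval -0.19 to 0.20; edgeR adjusted p = 0.991). Fancm, the DNA translocase that anchors the complex, was at 24.2, 35.4, 32.6 and 29.5 CPM in WT and at 31.3, 28.5, 29.3 and 34.7 CPM in ErbB4 -/-. WT replicates 1 and 2 were its lowest and highest libraries, with all ErbB4 -/- libraries between them. The log2 fold change of Fancm was 0.02 (SE 0.11; 95% interval -0.22 to 0.26; edgeR adjusted p = 0.974).

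Reads were not kept by strand, and 5 of the 9 members share exon bases with an annotated gene on the opposite strand, so their reads cannot be fully told apart from those of the partner. Fancd2, on chromosome 6 from 113481676 to 113547011, shares 257 exon bases with 4931417G12Rik. Fanci, on chromosome 7 from 86536815 to 86595151, shares 856 with Polg, the mitochondrial DNA polymerase. Fanca, on chromosome 8 from 125792200 to 125842476, shares 652 with Zfp276. Fancc, on chromosome 13 from 63406017 to 63598586, shares 185 with 2010111I01Rik, and Fancl, on chromosome 11 from 26286135 to 26371876, shares 462 with Vrk2. Ube2t, Fancb (chromosome X, 161418524 to 161435204), Fancg (chromosome 4, 43015215 to 43023378) and Fancm (chromosome 12, 66176593 to 66233045) overlap no other annotated gene.

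Levels of different genes were compared per kilobase of annotated exon, as CPM per kb. By the median of all 8 libraries, Fancg was the highest member at 5.59 CPM per kb (range 5.15 to 5.99), followed by Ube2t at 4.20 (2.74 to 7.34), Fancm at 3.91 (3.11 to 4.55) and Fancl at 3.77 (2.73 to 4.43). Fanci was at 2.72 (2.15 to 3.08), Fancb at 2.48 (2.37 to 3.03), Fancd2 at 1.78 (1.65 to 2.31), Fanca at 1.66 (1.29 to 2.04) and Fancc at 1.44 (1.31 to 1.58). Of the neighbours in this order, only Fancb and Fancd2 had ranges that did not overlap, and Ube2t, Fancm and Fancl could not be set apart from each other. Ube2t ranked 1, 3, 1 and 2 among the 9 members in WT replicates 1 to 4 and 4, 2, 3 and 4 in ErbB4 -/- replicates 1 to 4. Its exon length is 1784 bases, the shortest of the members, whereas those of Fanca (8491) and Fancd2 (7937) are the longest. These lengths are unions of annotated exons. The longest coding transcript of Fancc has 2995 bases against a union of 7884, and that of Fanca has 4485 against 8491. That of Fancd2 has 5512 against 7937, and that of Ube2t has 1116 against 1784. For Fancb the lengths are close (2980 and 2983). The order of the members, and the gap between Fancb and Fancd2, thus depend on the length used.

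**Figure D2:**
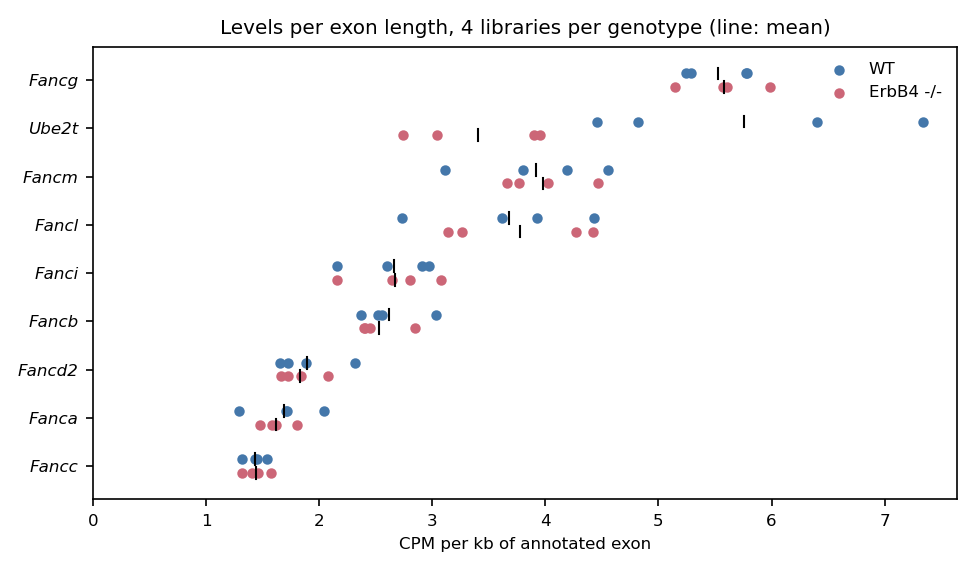
CPM per kb of annotated exon on the x axis for the 9 members, in order of their median, with 1 point per library and a line at each genotype's mean. Ube2t spreads from 2.74 to 7.34 CPM per kb with its genotypes apart, while Fancg stays between 5.15 and 5.99.

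Relative to the other members, Ube2t was also lower in ErbB4 -/-. Per 100 CPM of the other 8 members summed, Ube2t took 11.5, 6.11, 8.16 and 6.82 CPM in WT replicates 1 to 4 and 4.48, 5.62, 5.54 and 3.56 CPM in ErbB4 -/- replicates 1 to 4. The genotypes did not overlap on this ratio either, which holds the values of Ube2t that chose the set.

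The wider pathway was read from 5 lists by role with 47 genes in all, of which 38 are no members. All 47 were tested, and edgeR called 0 of the 38. Of the 38 other genes, 28 were lower and 10 higher, with a median log2 fold change of -0.08 against -0.0022 for all genes, of which 50.8% were lower. The unadjusted p was under 0.05 for 3 of the 38, against 5.53% of all genes, DESeq2 and limma-voom called 0 of them, and the genotypes did not overlap in 0 of the 38. The count of 3 became 8 without WT replicate 2, 7 without ErbB4 -/- replicate 4, 6 with the length trend removed, 1 without WT replicate 3 or 4 or ErbB4 -/- replicate 3, and 0 without ErbB4 -/- replicate 1 or 2 or with Xist as a covariate. It was 2 without WT replicate 1. Their highest log2 fold change was 0.13 (Rev3l), and their edgeR adjusted p-values were 0.810 or above.

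In the FA core complex list (13 genes, 8 lower and 5 higher), the smallest p-values belonged to Stra13, Apitd1 and Fance. Stra13 and Apitd1, known as Cenpx and Cenps, form the histone-fold pair that binds Fancm, and had log2 fold changes of -0.18 (SE 0.092) and -0.19 (SE 0.15). Fance had -0.09 (SE 0.070). The list for the ubiquitin switch holds Ube2t with the ligase Rfwd3 (-0.14, SE 0.096) and with the deubiquitinating pair Usp1 (-0.10, SE 0.092) and Wdr48 (0.07, SE 0.063). The last 3 genes had edgeR adjusted p-values of 0.810 or above.

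Among the 17 crosslink repair effectors, 11 were lower and 6 higher. Brca1, a ubiquitin ligase subunit of homologous recombination, stood at a log2 fold change of -0.19 (SE 0.080), and the nuclease subunit Eme1 at -0.23 (SE 0.12). In the list of 11 ATR checkpoint genes, 9 were lower and 2 higher. The smallest p-values there were those of the 3 subunits of replication protein A, which coats single-stranded DNA: Rpa3 at -0.21 (SE 0.091), Rpa2 at -0.18 (SE 0.094) and Rpa1 at -0.11 (SE 0.059), each with an edgeR adjusted p of 0.810.

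The other ubiquitin-conjugating enzymes were spread on both sides of 0. Of 31 E2 genes tested, 17 were lower and 14 higher, with a median log2 fold change of -0.02 and a range from -0.23 (Ube2c, which serves the anaphase-promoting complex in mitosis) to 0.15 (Birc6). By edgeR, DESeq2 and limma-voom, 0 were called and 0 had an unadjusted p under 0.05, and the genotypes overlapped in all 31. Without WT replicate 1, 8 of the 31 were lower and the median was 0.04, and with Xist as a covariate 11 were lower and the median was 0.05. The count at an edgeR unadjusted p under 0.05 was 2 without WT replicate 1, 2 or 3 and 1 without ErbB4 -/- replicate 4. The smallest p-values were those of Cdc34 (-0.20, SE 0.098), Ube2c (SE 0.12) and Ube2g2 (-0.10, SE 0.063).

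**Figure D3:**
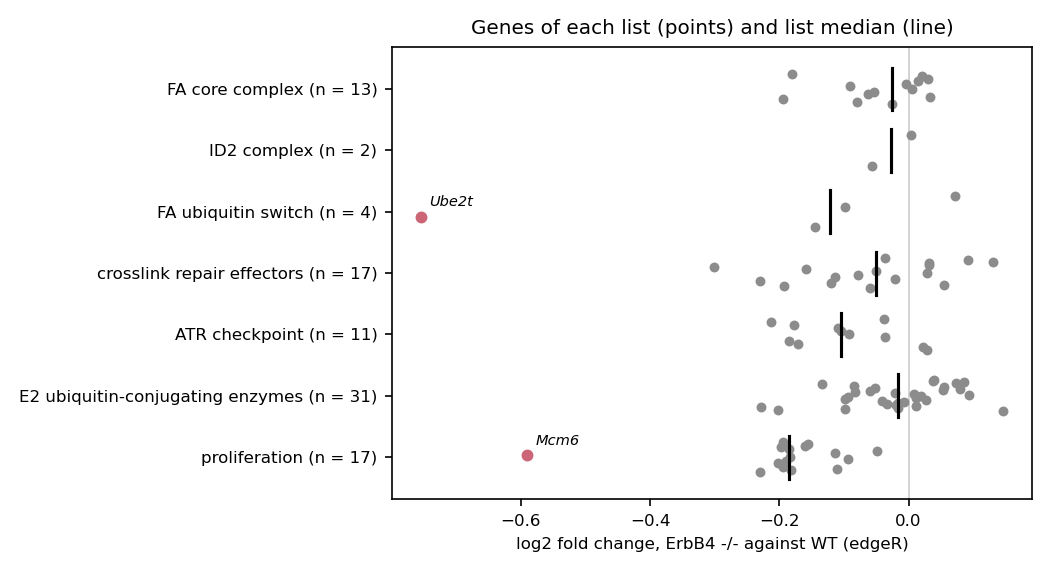
Log2 fold change of ErbB4 -/- against WT on the x axis for each tested gene (points) of the 5 pathway lists, the E2 enzymes and the proliferation genes, with a line at each list's median. Ube2t at -0.75 and Mcm6 at -0.59 lie to the left of all other points, of which the highest is at 0.15.

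All 17 proliferation genes had a negative log2 fold change, with a median of -0.19 (-0.11 with Xist as a covariate). Of these, edgeR and limma-voom called 0 and DESeq2 called 1 (Mcm6), 4 had an edgeR unadjusted p under 0.05 (5.53% of all genes did), and in 1, again Mcm6, the genotypes did not overlap (3.34% of all genes). The count at an unadjusted p under 0.05 was 15 without ErbB4 -/- replicate 4, 12 without WT replicate 2 (where edgeR called Mcm6), and 1 with Xist as a covariate or without WT replicate 3 or ErbB4 -/- replicate 1, 2 or 3. That count was 7 with the length trend removed, 5 with the replicate block and 3 without WT replicate 1 or 4. Mcm6, a subunit of the replicative helicase, was at 160, 106, 153 and 137 CPM in WT replicates 1 to 4 and at 87.5, 102, 82.2 and 97.6 CPM in ErbB4 -/- replicates 1 to 4 (log2 fold change -0.59, SE 0.12, edgeR adjusted p = 0.469). Its lowest WT library was replicate 2, as for Ube2t. Mcm6 also lies on chromosome 1, from 130228168 to 130256233, where Ube2t starts at 136859142. The part of this position in the level of Mcm6 was not tested. Plk1 (-0.20, SE 0.078), Aurkb (-0.23, SE 0.092), Pcna (-0.19, SE 0.088), Top2a (-0.16, SE 0.10) and Mki67 (-0.05, SE 0.13) had smaller differences. The summed level of the 17 genes was 1656 to 2118 CPM in WT and 1583 to 1934 CPM in ErbB4 -/-, so the ranges overlapped.

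Set against this sum, Ube2t took 6.77, 4.80, 5.39 and 4.66 CPM per 1000 CPM of proliferation genes in WT replicates 1 to 4 and 3.42, 4.39, 4.43 and 2.53 in ErbB4 -/- replicates 1 to 4. The genotypes did not overlap on this ratio, which again holds the values of Ube2t that chose the set, and the part of proliferation in the level of Ube2t was not tested. Markers of cortical progenitors were lower in 5 of 5 genes (median log2 fold change -0.23, summed level 646 to 773 CPM in WT and 591 to 707 CPM in ErbB4 -/-), and the intermediate progenitor markers Eomes and Neurog2 were lower in 2 of 2 (median -0.24, 428 to 520 CPM and 367 to 471 CPM). Cortical neuron markers had a median of -0.0088 (-0.04 to 0.03 with 1 library left out, 3 of 5 lower, 4012 to 4653 CPM and 4326 to 4835 CPM). Of these 12 marker genes, edgeR, DESeq2 and limma-voom called 0 (lowest edgeR adjusted p = 0.810). An edgeR unadjusted p under 0.05 was found for 4, against 5.53% of all genes. This count was 2 for cortical progenitors, 0 with Xist as a covariate and 1 without ErbB4 -/- replicate 1 or 2. It was 3 without WT replicate 3 or ErbB4 -/- replicate 4, with the replicate block or with no filter on low counts. For intermediate progenitors it was 1, and 2 without ErbB4 -/- replicate 4. For cortical neurons it was 1, and 0 without WT replicate 4 or ErbB4 -/- replicate 2 or 3 or with Xist as a covariate. The part of these markers in the level of Ube2t was not tested.

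Markers of other cell types were read in the same way. Of the 5 red blood cell markers 3 were tested, and 2 of these were lower (median log2 fold change -1.23, 0 called by edgeR, DESeq2 or limma-voom, 2 at an unadjusted p under 0.05, where 5.53% of all genes were). Without ErbB4 -/- replicate 4, edgeR called 1 of them (Hba-x), 3 had an unadjusted p under 0.05 and the median was -1.71, and with a further marker passing the filter the median was -0.80 without ErbB4 -/- replicate 2 and -0.81 without replicate 1. With Xist as a covariate it was -0.79, and 0 had an unadjusted p under 0.05. The 5 summed to 31.3 to 55.4 CPM in WT and 19.96 to 34.9 CPM in ErbB4 -/-, and 2 of the 5 stayed below 1 CPM in every library. The 4 meningeal markers summed to 6.06 to 6.77 CPM in WT and 6.12 to 11.4 CPM in ErbB4 -/-, with 1 of the 4 (Lum) below 1 CPM in every library. The highest sum was that of ErbB4 -/- replicate 3, where Col1a2 was at 6.56 CPM against 2.53 to 3.08 CPM in the other 3 libraries of that genotype and 1.82 to 2.89 CPM in WT. Of the 3 meningeal markers tested 1 was lower and 2 higher, with Col1a2 at a log2 fold change of 0.62 (SE 0.29). None was called by edgeR, DESeq2 or limma-voom. The median log2 fold change was 0.05, from -0.01 without WT replicate 2 to 0.19 without ErbB4 -/- replicate 4, and 0.0035 without ErbB4 -/- replicate 3. At an edgeR unadjusted p under 0.05 there were 0, and 1 without ErbB4 -/- replicate 1, 2 or 4 or with upper-quartile normalization. With no filter on low counts all 4 were tested, 2 had an edgeR unadjusted p under 0.05 and the median was 0.34. The filter at a mean of 50 counts kept 2, with a median of 0.30. Ganglionic eminence and interneuron markers had a median of -0.0041 (3 of 6 lower, 450 to 604 CPM and 445 to 612 CPM), but 0 of 6 were lower with Xist as a covariate (median 0.24), 6 of 6 without WT replicate 4 (-0.08) or ErbB4 -/- replicate 1 (-0.07), and 1 of 6 without WT replicate 2 or 3 or ErbB4 -/- replicate 3 (0.05 to 0.07). Of the rest, vessel markers had a median of 0.05 (2 of 4 lower, and 0.04 to 0.07 with 1 library left out). Microglial markers had a median of 0.01 (1 of 4 lower), which ran from -0.07 without WT replicate 2 to 0.05 without WT replicate 1 and was -0.12 with Xist as a covariate, where 3 of 4 were lower. The part of these cells in the level of Ube2t was not tested.

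Pearson's r of log2 CPM with Ube2t over the 8 libraries was 0.46 for Fancb, 0.28 for Fanci, 0.05 for Fancd2, -0.08 for Fancg, -0.17 for Fanca, -0.23 for Fancc, -0.25 for Fancl and -0.52 for Fancm. Of the 17 proliferation genes 16 had a positive r, from 0.29 to 0.86 (Mcm6), among them Pcna (0.65) and Top2a (0.42), and Mki67 had -0.11. After the genotype means were taken out, r was -0.77 for Fancm, -0.46 for Fanca, -0.37 for Fancc, -0.32 for Fancl, -0.12 for Fancd2, 0.01 for Fancg and 0.52 for Fanci and Fancb, and it was positive for 13 of the 17 proliferation genes, with 0.56 for Mcm6, 0.35 for Pcna, 0.12 for Top2a and -0.32 for Mki67. These are descriptions over 8 points, all of whose genes come from the same libraries with their differences in depth, genotype and the departure of WT replicate 1, and they carry no test.

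The 5 genes most like Ube2t by the same r were Csrp1 (0.98), Tsen15 (0.97), Pla2g16 (0.95), Cstf3 (0.95) and Fam98a (0.94), and after the genotype means were taken out r was 0.95, 0.91, 0.87, 0.89 and 0.94. Csrp1 encodes a LIM domain protein of the actin cytoskeleton, Tsen15 a subunit of the tRNA splicing endonuclease and Cstf3 a subunit of the mRNA cleavage stimulation factor. Csrp1 was at 33.5, 23.5, 28.5 and 22.7 CPM in WT replicates 1 to 4 and at 15.2, 20.5, 21.2 and 16.1 CPM in ErbB4 -/- replicates 1 to 4. As for Ube2t, WT replicates 1 and 3 were its highest libraries and ErbB4 -/- replicates 1 and 4 its lowest. These genes were picked for their likeness to Ube2t, so the order of their libraries and the sign of their fold changes largely follow from that choice and are given with no test. The log2 fold change of Csrp1 was -0.56 (SE 0.14). Csrp1 and Tsen15 also lie on chromosome 1, at 0.746 Mb and 17.3 Mb from Ube2t, whereas Pla2g16, Cstf3 and Fam98a lie on chromosomes 19, 2 and 17. For Tsen15 it was -0.43 (SE 0.13).

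**Figure D4:**
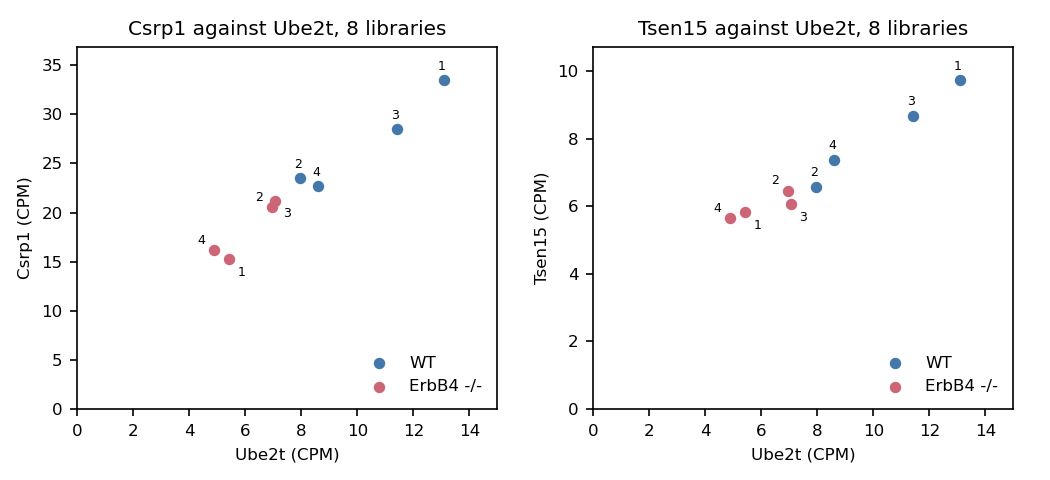
CPM of Csrp1 (left) and Tsen15 (right) on the y axis against CPM of Ube2t on the x axis, with 1 point per library marked by its replicate number and coloured by genotype. The points rise along a line in both panels (r of log2 CPM 0.98 and 0.97 over 8 libraries), with WT replicates 1 and 3 at the top and ErbB4 -/- replicates 1 and 4 at the bottom.

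The genes next to Ube2t on chromosome 1 had log2 fold changes of either sign. On the side of lower coordinates, Ppp1r12b, a myosin phosphatase subunit whose annotated end lies 6.62 kb away, had a log2 fold change of 0.11 (SE 0.15), Syt2 -0.33 (SE 0.16), Kdm5b 0.07 (SE 0.049), Rabif -0.04 (SE 0.056) and Klhl12 -0.17 (SE 0.062). On the side of higher coordinates, Lgr6, at 12.2 kb, had 0.21 (SE 0.47) and Arl8a 0.08 (SE 0.069), while the next 3 were lower. Rnpep, at 289 kb, was at 76.4, 63.2, 63.8 and 65.0 CPM in WT replicates 1 to 4 and at 55.6, 56.4, 59.9 and 51.8 CPM in ErbB4 -/- replicates 1 to 4 (log2 fold change -0.26, SE 0.076). Timm17a had -0.15 (SE 0.080), and Lmod1, a smooth muscle actin regulator at a low level (1.11 ± 0.374 CPM in WT and 0.416 ± 0.190 CPM in ErbB4 -/-, SD, n = 4 each), had -1.41 (SE 0.36). Of these 10 neighbours, 2 (Rnpep and Timm17a) had genotypes that did not overlap, where 3.34% of all genes did, and 3 had an unadjusted p under 0.05, where 5.53% of all genes did. That count was 5 without WT replicate 1, 2 without ErbB4 -/- replicate 1 or 2, and 1 with Xist as a covariate. By edgeR, DESeq2 and limma-voom, 0 of the 10 were called, with edgeR adjusted p-values of 0.736 and above.

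**Figure D5:**
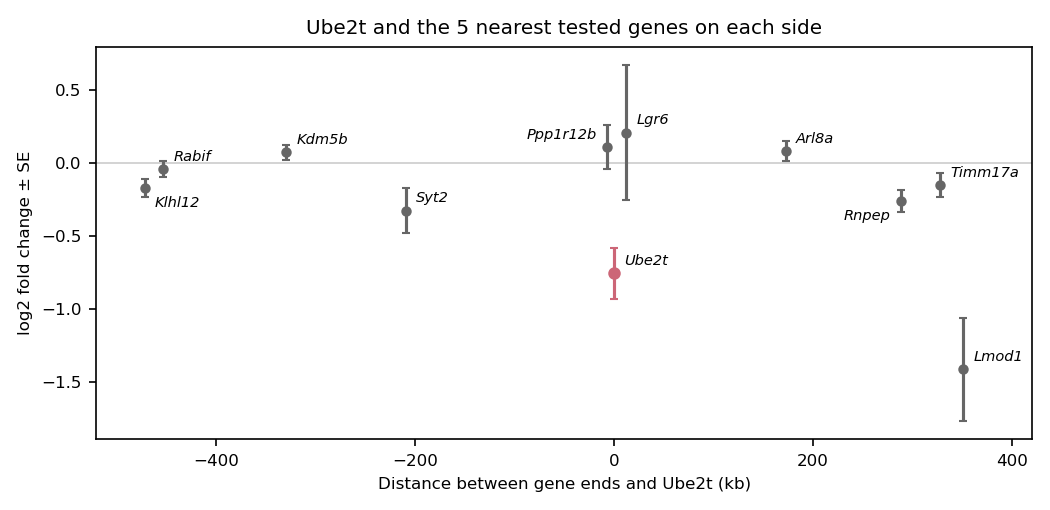
Log2 fold change of ErbB4 -/- against WT ± SE on the y axis for Ube2t and the 5 nearest tested genes on each side, against the distance in kb between gene ends on the x axis. Ube2t at -0.75 lies between Ppp1r12b at 0.11 and Lgr6 at 0.21, and Lmod1 at -1.41 is the lowest point.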

How the data were processed

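RNA was measured in 4 WT and 4 ErbB4 -/- cortex samples. The authors sequenced polyA-selected, non-strand-specific libraries with single-end reads, mapped them to mm9 with HISAT and counted them with HTSeq-count. The annotation and counting mode are not given in the sources used here. The deposited files hold raw counts per gene symbol. The authors' deposited table of their own DESeq2 comparison (mean normalized counts, log2 fold changes, p-values) was not used.

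The test was the quasi-likelihood F test of edgeR 4.0.16 (R 4.3.3) after TMM scaling. Genes had to pass filterByExpr (minimum count 10, minimum total 15), p-values were adjusted over all of them by the Benjamini-Hochberg method, and the threshold was 0.05. CPM are TMM-scaled, log2 CPM have a prior count of 2, and intervals are 95%. GENCODE models on NCBIM37 gave the positions and the exon lengths, which are unions of annotated exons. Upstream sequences came from RefSeq.

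The members and lists were chosen with earlier results of these data known. The genes named are the 9 members, Erbb4, Xist and Ddx3y, every gene called or else the 3 smallest p-values of each list (with Mki67, Top2a, Pcna and Mcm6), the 5 genes most correlated with Ube2t and the 5 nearest tested genes on each side. Genes at the ends of a list's range (Rev3l, Birc6), Usp1 and the markers Eomes, Neurog2, Hba-x, Lum and Col1a2 were named after their values were seen. Alternatives were DESeq2 1.42.0, limma-voom (limma 3.58.1), scaling by RLE or by upper quartiles, all genes unfiltered, a filter at a mean of 50 counts, a prior count of 0.5, the replicate number as a block, removal of the trend with exon length, Xist as a covariate and each library left out. The Xist covariate was a class, high in WT replicates 1 to 3 and low in all others. Its genotype term therefore rests on WT replicate 4 against the ErbB4 -/- libraries. WT replicate 4 as the lone WT library was added after seeing the data and is nearly the same comparison. A gene that the rule would name in the repair list is not reported here. Low counts widen the error, which the fitted model includes. The steps were tested on simulated data. Plots used Python 3.11.15 with matplotlib 3.10.9.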

Additional observations from a re-analysis of the deposited data

Results flagged for a closer look

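Fancb stood out in ErbB4 -/- replicate 3, at 8.50 CPM against 7.15 to 7.31 CPM in the other 3 libraries of that genotype, a gap that is large for the range of the group by Dixon's criterion. In all, 18 groups (9 members in 2 genotypes) were examined in this way, and chance marks about 1 group in 20. In WT, replicate 3 was also the highest library for Fancb, at 9.04 CPM.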

How the results depend on the processing

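None of the 8 other members was called, or had an unadjusted p under 0.05, under any alternative run, with lowest adjusted p-values of 0.728 to 1.00. The log2 fold change of Ube2t stayed negative throughout. It was -0.75 with the replicate block and -0.72 with the length trend removed. With Xist as a covariate it was -0.50 (SE 0.27) and against WT replicate 4 alone -0.50, both resting on WT replicate 4. With 1 library left out it ran from -0.86 (without WT replicate 2) to -0.62 (without WT replicate 1). Over all genes, 4 were called, against 24 by DESeq2, 1 with RLE normalization, 1 with upper-quartile normalization, 1 with Xist as a covariate and 1 to 13 with 1 library left out (13 without WT replicate 4). The causes were not tested.

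The signs of the other members were not stable. With Xist as a covariate the log2 fold change was 0.093 for Fancb, 0.079 for Fancd2, -0.011 for Fancc, -0.12 for Fanci and -0.061 for Fancl. With the length trend removed it was -0.060 for Fancc, -2.0e-05 for Fancg, -0.039 for Fanci and -0.030 for Fancm, and by limma-voom -0.015 for Fanci. With 1 library left out it ran from -0.17 to 0.044 for Fanca, -0.12 to 0.027 for Fancb, -0.044 to 0.047 for Fancc, -0.13 to 0.056 for Fancd2, -0.020 to 0.052 for Fancg, -0.085 to 0.096 for Fanci, -0.088 to 0.13 for Fancl and -0.072 to 0.10 for Fancm. With 1 library left out, the median of the 38 wider pathway genes that are no members ran from -0.11 to -0.06. For all 47 genes, Ube2t among them, the median was -0.06 and ran from -0.11 to -0.03. That of the proliferation genes ran from -0.27 to -0.14.

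The labels give both genotypes the numbers 1 to 4. Deviations from the group means correlated at 0.257, 0.426, 0.0709 and 0.0440 between libraries of the same number. Libraries of different numbers were not compared in this way, so these values do not show whether the numbers mark pairs. The main fit did not take them as pairs, and the replicate block called 1 gene in place of 4 and 0 of the 8 members.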
